A study of Rattus norvegicus with 20 samples.

Results

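Collagen genes were described across the injured cervical spinal cord and the subcortical white matter of rats. A gene was counted as a collagen gene when its symbol was Col, a number, a and a number, as in Col1a1, and for a repeated symbol the row with the higher mean level stood for the gene. The rule found 42 of the 30443 genes in the table. A total of 29 of them reached 1 FPKM (read fragments divided by transcript length and library size, so a level per length) in at least 1 library and were tested, and 13 did not. Libraries came from 5 regions in each of 4 wild-type female Long-Evans rats of about 6 to 8 months, 20 in all. All 4 animals had a hemicontusion at cervical level 4 with a displacement of 0.7 mm and, 2 weeks later, an electrode array in the motor cortex opposite the injury. Starting 3 weeks after the injury, a pair of animals received cortical stimulation for 1 week (5 days), 5 hours a day. Pulses came at 10 Hz and 80% of the movement threshold, in cycles of 5 minutes on and 2 minutes off. The other pair, called controls, had the same injury and implant and a sham session without current, so no animal was uninjured or without electrodes. Region 1 was a block of white matter below the electrodes and region 2 the matching block of the opposite hemisphere. Regions 3, 4 and 5 were whole pieces of cord rostral to the lesion, at the lesion and caudal to it.

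Collagens are secreted or membrane-bound proteins that assemble from chains wound into a triple helix. Fibrillar collagens such as types I, III and V build the cables of connective tissue, type IV forms the sheet of basement membranes, and type VI forms beaded filaments close to cells. The so-called FACIT collagens decorate fibrils, type VIII forms short-chain networks, type XVIII carries heparan sulfate chains in basement membranes, and types XIII, XXIII and XXV span the cell membrane. In the central nervous system fibrillar collagen is mostly found in the meninges and around larger vessels, and type IV collagen lines blood vessels and the pial surface. After injury, fibroblast-like cells can deposit both in a fibrotic scar. Each value below comes from bulk tissue, in which more cells of a type and more RNA per cell cannot be told apart.

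Of the 29 genes tested, 8 were fibrillar, 4 encoded type IV chains, 2 type VI chains, 2 type VIII chains, 7 FACIT collagens, 3 transmembrane collagens and 1 the multiplexin Col18a1, while Col7a1 and Col26a1 fell outside these classes. A total of 16 reached 1 FPKM in all 20 libraries. The 13 genes below 1 FPKM included 5 listed at the floor of 0.1 FPKM in all 20 libraries, Col1a2, Col6a4, Col6a5, Col15a1 and Col17a1. Col1a2 encodes the second chain of type I collagen, the partner of the Col1a1 chain, yet Col1a1 was measured between 1.09 and 38.9 FPKM in the same libraries. The Col1a2 entry was therefore read only as listed at the floor. The other 8, among them Col2a1 and Col4a6, peaked between 0.198 and 0.886 FPKM. The tested gene closest to the filter was Col26a1, with a highest value of 1.21 FPKM, and the untested gene closest to it was Col4a6, with 0.886 FPKM.

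The 2 type IV chains Col4a1 and Col4a2, which form the common basement membrane trimer, start head to head on opposite strands of chromosome 16. The interval between their RefSeq starts is shown here because the values of these chains are set side by side below. It lies at chr16:84885521-84885596 of the rat assembly GRCr8 and is written 5′ to 3′ on the plus strand, with the match to GGGCGG (read on the other strand as CCGCCC) in capitals.
Col4a1 to Col4a2 interval: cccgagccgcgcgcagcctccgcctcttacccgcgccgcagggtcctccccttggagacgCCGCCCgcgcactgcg
The interval is 76 bases long and has a GC content of 78.9%, against a median of 53.9% over 33469 windows of the same length just upstream of rat gene starts in the RefSeq table. GGGCGG occurs in it 1 time, and 18.1% of those windows hold it on either strand. CCAAT, held by 13.0% of the windows on either strand, and TATAAA, held by 4.61%, do not occur in it. A match to letters is a description and not a binding site.

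Col3a1, Col11a2 and Col1a1 had the highest mean levels. Col3a1, the chain of type III collagen, ran from 1.97 to 73.3 FPKM over the 20 libraries. Col11a2, a chain of the fibrillar type XI collagen, stayed between 6.76 and 17.3 FPKM and was the highest collagen gene in 11 of the 20 libraries. The 42 genes together took between 0.0244% and 0.1224% of the FPKM sum of a library. In white matter the share was 0.0665% ± 0.0375 (SD, n = 4 animals) under the electrodes and 0.0343% ± 0.0099 on the opposite side. In the cord it was 0.0388% ± 0.0025 rostrally, 0.0524% ± 0.0072 at the lesion and 0.0518% ± 0.0133 caudally. These shares were not tested. By the mean of 4 libraries, 11 of the 29 genes were highest in region 1 and 11 in region 5, and 17 were lowest in region 2. By the median, 6 were highest in region 1, 9 in region 4 and 9 in region 5, and 21 were lowest in region 2.

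Stimulated animal 2 stood apart and bears on most results below. Its collagen share was 0.1224% in region 1, where the other 3 animals lay between 0.0427% and 0.0519%, and 0.0476% in region 2, where they lay between 0.0244% and 0.0356%. At the lesion it had the lowest share, 0.0452%, against 0.0483 to 0.0614%, and in region 5 the highest, 0.0683%, against 0.0402 to 0.057%. Its region 1 library held the highest value of 12 of the 29 genes and its region 5 library that of another 7. Marker levels moved with it. In region 1 the 8 myeloid markers summed to 581 FPKM in this animal, against 122 to 181 FPKM in the other 3, and the 10 fibroblast markers to 140.9 FPKM, against 40.1 to 84.4 FPKM. Their part in the collagen values was not tested. The white matter libraries were not free of neuronal RNA, since the 6 neuron markers summed to between 933 and 1728 FPKM there and between 681 and 1248 FPKM in the cord. The 6 oligodendrocyte markers summed to 708 to 2943 FPKM in the white matter libraries and 7403 to 10779 FPKM in the cord. The name white matter is thus that of the dissection, and how much gray matter the blocks held was not tested. Markers of choroid plexus, skeletal muscle and cartilage or bone summed to at most 12.7, 22.2 and 3.00 FPKM in any library.

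**Figure D1:**
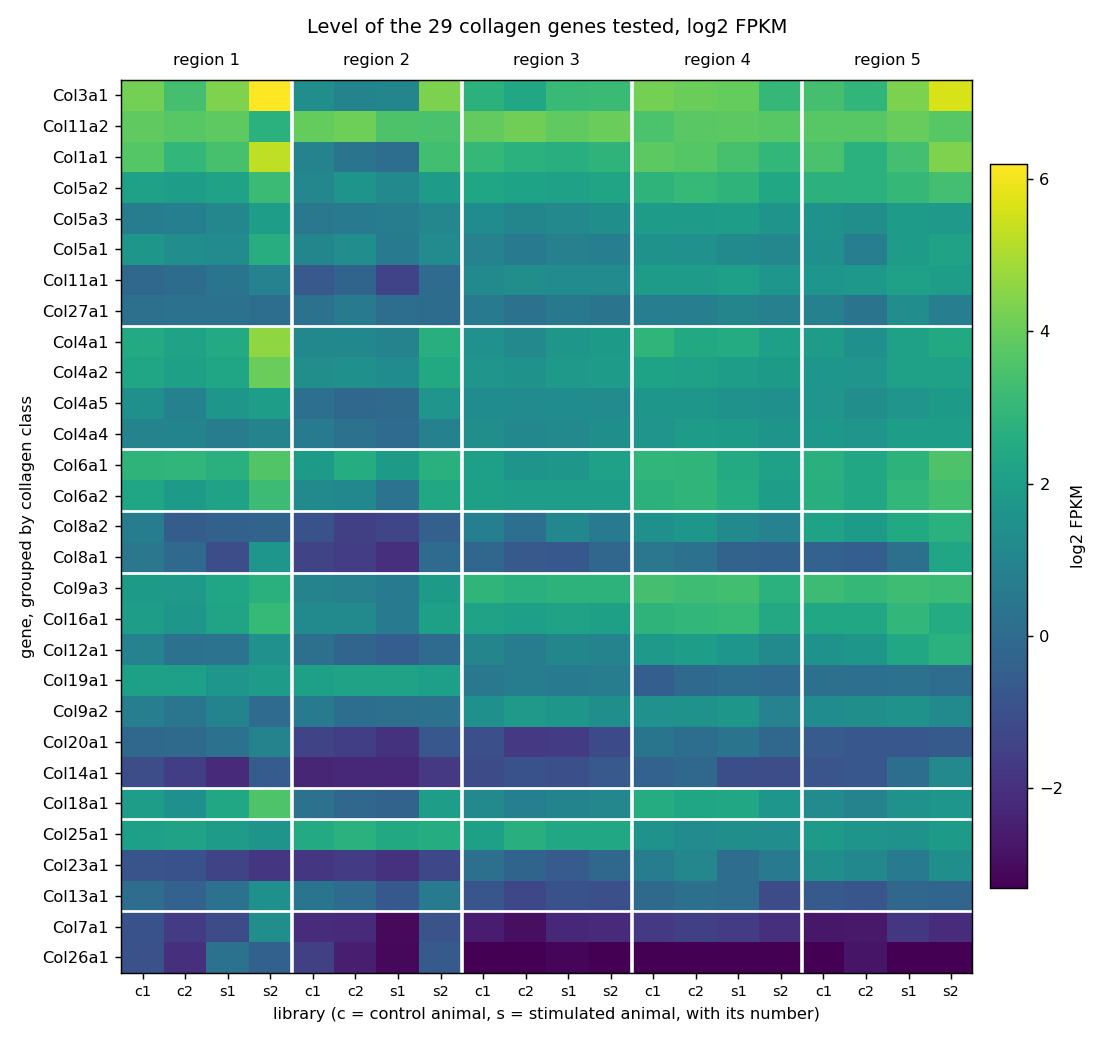
Level of the 29 collagen genes tested in each of the 20 libraries, as log2 FPKM, with genes in rows grouped by collagen class and libraries in columns grouped by region (c, control animal; s, stimulated animal). Col3a1 and Col1a1 are brightest in stimulated animal 2 in region 1, at 73.3 and 38.9 FPKM, and most genes are darkest in region 2.

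The side with the electrodes was compared with the opposite hemisphere to see how collagen genes stood below an implant. Among the genes higher in region 1 than in region 2 were 4 of 8 fibrillar genes, 2 of 4 type IV, 1 of 2 type VI and 3 of 7 FACIT genes and the multiplexin Col18a1, and 1 of 3 transmembrane collagen genes was lower. With limma and an adjusted p under 0.05 as the threshold, 11 of the 29 genes were higher, where 6.86% of the 15210 genes tested were higher, and 1 was lower, where 1.76% of all genes were lower. The median log2 fold change was 0.92 over the 29 genes and 0.06 over all genes. A total of 22 of the 29 were higher in region 1 in all 4 animals, as were 22.2% of all genes.

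The largest differences were in the fibrillar genes of types I and III. Col1a1 was 12.8, 7.98, 10.8 and 38.9 FPKM in region 1 of control animals 1 and 2 and stimulated animals 1 and 2, and 1.90, 1.27, 1.09 and 9.85 FPKM in region 2. Each animal was higher on the electrode side, while the regions overlapped, because stimulated animal 2 in region 2 was above control animal 2 in region 1. The difference was 6.37-fold, a log2 fold change of 2.67 ± 0.55 (SE), with an adjusted p of 0.0081 (limma, 20 libraries from 4 animals). The model had no term for the animal, and its SE pools the spread within all 5 regions. The Col1a1 gene overlaps Sgca in the annotation, which was 1.69 to 2.56 FPKM in region 1 and 2.02 to 2.33 FPKM in region 2. Col3a1 was 18.6, 10.6, 20.6 and 73.3 FPKM in region 1 and 2.62, 1.97, 2.08 and 19.9 FPKM in region 2. It too was higher in all 4 animals, with the regions overlapping through the same library, by 6.10-fold (log2 2.61 ± 0.69, adjusted p = 0.026). Col5a2, a chain of the type V collagen that nucleates fibrils, was 4.33, 4.05, 4.46 and 9.05 FPKM in region 1 and 2.12, 3.01, 2.22 and 3.85 FPKM in region 2, without overlap (log2 0.92 ± 0.23, adjusted p = 0.021). Col11a1 rose by 0.85 ± 0.24 on the log2 scale (adjusted p = 0.036) from a level of 0.381 to 0.993 FPKM in region 2. Not every fibrillar gene passed: Col11a2 was 6.76 to 14.8 FPKM in region 1 and 11 to 17.3 FPKM in region 2, and Col27a1 was 1.08 to 1.21 and 1.03 to 1.5 FPKM.

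Among the network-forming genes, Col4a1 was 5.61, 4.50, 5.68 and 24.6 FPKM in region 1 and 2.18, 2.16, 1.90 and 6.20 FPKM in region 2. The 3 animals other than stimulated animal 2 were separated between the regions, and that animal was the highest in both (log2 1.5 ± 0.44, adjusted p = 0.041). Its partner Col4a2 was 4.87, 4.24, 5.02 and 16.2 FPKM against 2.59, 2.73, 2.51 and 5.47 FPKM and was not past the threshold (adjusted p = 0.052). Col4a5, an alternative type IV chain, was higher by 1.09 ± 0.29 (adjusted p = 0.026). Col18a1, the precursor of the fragment endostatin, was 3.91, 2.74, 5.03 and 11.9 FPKM in region 1 and 1.18, 0.885, 0.815 and 3.98 FPKM in region 2. Each animal was higher in region 1, and the regions overlapped through stimulated animal 2 (log2 1.89 ± 0.43, adjusted p = 0.013). Col6a2 was higher by 1.13 ± 0.34 (adjusted p = 0.046), and Col6a1 did not pass, at 6.64 to 12.3 FPKM against 3.62 to 6.52 FPKM (adjusted p = 0.063).

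The 3 FACIT genes that rose were Col9a3, Col16a1 and Col20a1. Col20a1 was 0.924, 0.980, 1.16 and 1.90 FPKM in region 1 and 0.390, 0.337, 0.264 and 0.594 FPKM in region 2, without overlap, and had the smallest adjusted p of the 29 genes (log2 1.65 ± 0.26, adjusted p = 0.0021). This gene reached 1 FPKM in only 5 libraries, all of them in regions 1 and 4. It thus passed the filter through the regions where it was called higher. Col20a1 overlaps Chrna4, a neuronal acetylcholine receptor gene, in the annotation, and the strand used in counting is not given in the sources used here. Chrna4 itself was 3.98 to 6.33 FPKM in region 1 and 5.65 to 6.54 FPKM in region 2. Col9a3 was 3.45 to 6.59 FPKM against 1.55 to 3.68 FPKM (log2 1.08 ± 0.22, adjusted p = 0.0082), and Col16a1 was 3.31 to 8.39 FPKM against 1.52 to 4.20 FPKM (log2 0.99 ± 0.27, adjusted p = 0.030). The gene that fell was Col25a1, a transmembrane collagen made by neurons, at 4.16, 4.47, 3.73 and 3.00 FPKM in region 1 and 5.61, 6.68, 5.52 and 5.89 FPKM in region 2. All 4 animals were lower on the electrode side, without overlap (log2 -0.64 ± 0.13, adjusted p = 0.0082).

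The count of calls in this comparison depended on single animals. It was 19 without stimulated animal 2 (18 higher and 1 lower), where 21.6% of all genes were called higher and 2.52% lower. It was 1 without control animal 1, 2 without control animal 2 and 0 without stimulated animal 1, where 0.625%, 0.638% and 0.171% of all genes were called, so the count over the whole table moved in the same way. When single libraries of stimulated animal 2 were left out, the count was 20 without its region 2 library and 5 without its region 1 library, where 23.5% and 5.97% of all genes were called. With the animal as a replicate block it was 17, with Col4a2, Col4a4, Col6a1, Col8a1 and Col8a2 added, and quantile normalization gave 9 and no filter 5. When stimulated animal 2 was left out, Col1a1 was higher by 2.90 ± 0.23 and Col3a1 by 2.85 ± 0.32 on the log2 scale (limma adjusted p = 1.2e-05 and 7.6e-05).

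Other genes of collagen biology were counted in the same comparison. Of the partners of type IV collagen in basement membranes, 9 of 12 rose and 0 fell, among them the nidogens Nid1 (log2 1.89) and Nid2 (1.46) and the laminin chain Lama2 (1.34). Of the proteins that bind collagen fibrils, 6 of 11 rose, with fibronectin, Fn1, at 1.88, and the small proteoglycans Bgn at 1.77, Lum at 1.77 and Dcn at 1.66. Of the enzymes and chaperones of chain hydroxylation and folding, 6 of 19 rose, led by the lysyl hydroxylase Plod2 (1.41). Of the receptors, 4 of 5 rose, including the endocytic receptor Mrc2 (1.26) and the kinase Ddr1 (1.00). Of the collagen-cleaving enzymes, 3 of 6 rose, Mmp2 (2.21), Mmp14 (2.13) and Ctsk (1.74), and of the genes of propeptide cleavage and crosslinking, 2 of 8, Bmp1 (0.80) and Adamts2 (0.68). None of these 6 lists had a gene that fell. Without stimulated animal 2 the counts that rose were 10, 8, 12, 5, 3 and 7 in this order. Cell type markers moved with them. Of the fibroblast markers 3 of 10 rose, of the myeloid markers 2 of 8, of the mural markers 2 of 8, of the endothelial markers 1 of 6, of the astrocyte markers 2 of 6, of the Schwann cell markers 4 of 7 and of the oligodendrocyte markers 5 of 6, while 1 of 6 neuron markers fell and no marker of choroid plexus, skeletal muscle or cartilage and bone was called. Among the fibroblast and myeloid markers, 8 and 7 rose once stimulated animal 2 was left out. The part of these cell types in the collagen values was not tested.

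**Figure D2:**
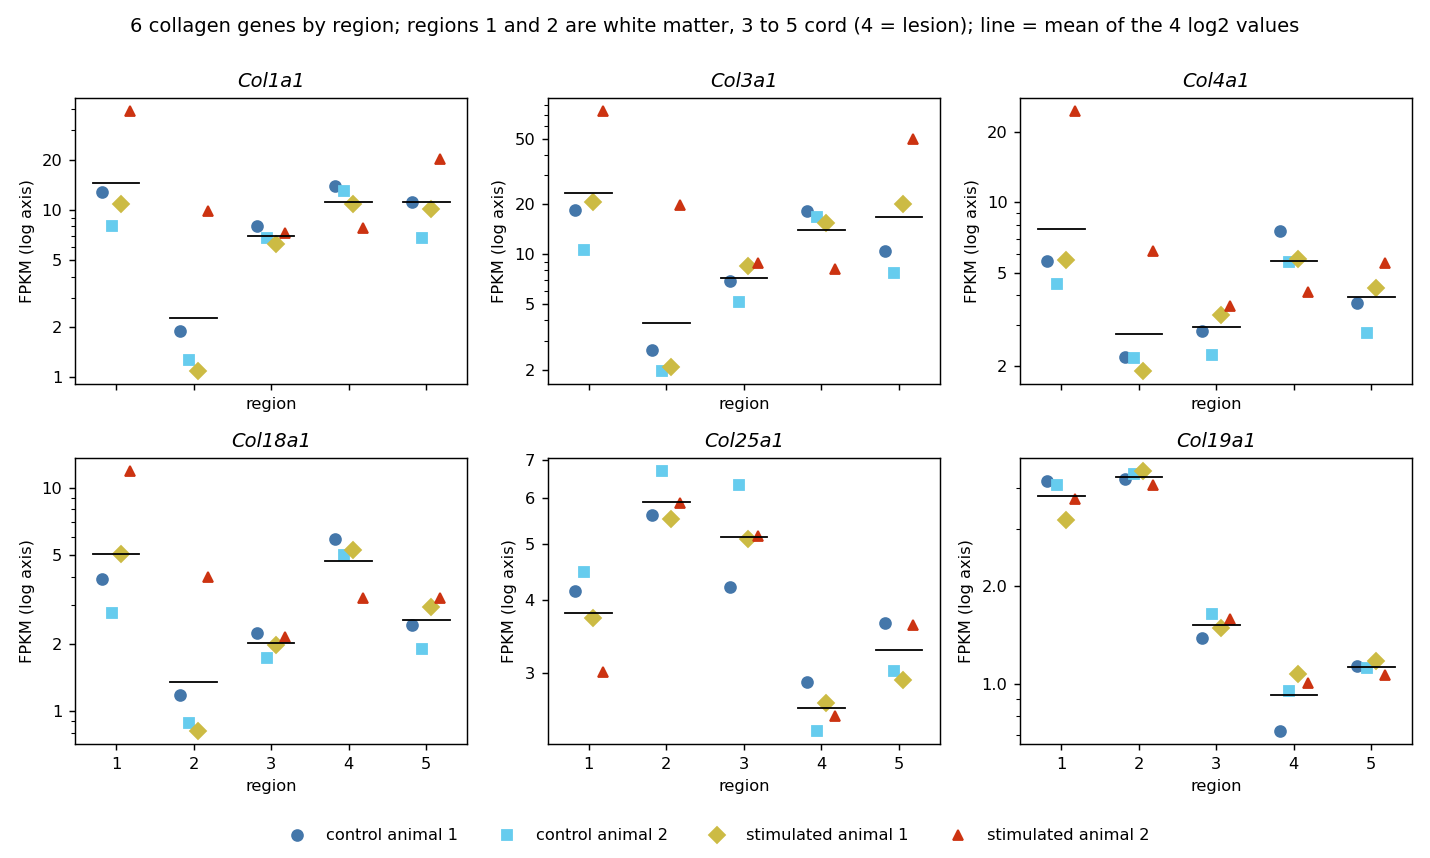
FPKM of Col1a1, Col3a1, Col4a1, Col18a1, Col25a1 and Col19a1 by region on log axes, with 1 point for each animal and a line at the mean of the 4 log2 values. In region 1 stimulated animal 2 is the highest point for Col1a1 (38.9 FPKM), Col3a1 (73.3 FPKM), Col4a1 (24.6 FPKM) and Col18a1 (11.9 FPKM), and at the lesion it is the lowest point for the same 4 genes.

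The lesion was next compared with the cord rostral to it. Here 4 of the 29 genes were higher, where 6.78% of all genes tested were higher, and 2 were lower, where 12.8% of all genes were lower. The median log2 fold change was 0.57 over the 29 genes and -0.02 over all genes, and 17 of the 29 were higher at the lesion in all 4 animals, as were 24.1% of all genes. The genes called were not those of types I and III.

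Col20a1 was 1.29, 1.08, 1.26 and 0.895 FPKM at the lesion and 0.499, 0.299, 0.320 and 0.437 FPKM in region 3, without overlap (log2 1.56 ± 0.26, adjusted p = 6.7e-04). Col20a1 passed the filter only through libraries of regions 1 and 4, as stated above. Its overlapping gene Chrna4 was 3.90 to 4.94 FPKM at the lesion and 6.52 to 7.80 FPKM in region 3. The transmembrane Col23a1 was 1.62, 2.1, 1.05 and 1.53 FPKM against 1.16, 0.847, 0.671 and 0.925 FPKM, higher in each animal but with overlapping regions (log2 0.79 ± 0.27, adjusted p = 0.043). Col5a3, a fibrillar chain, was 3.03 to 3.98 FPKM against 2.08 to 2.66 FPKM (log2 0.62 ± 0.22, adjusted p = 0.0496). Col4a4, a type IV chain known from kidney basement membrane, was 3.03 to 3.82 FPKM against 2.18 to 2.67 FPKM (log2 0.49 ± 0.15, adjusted p = 0.030). The genes that fell were Col25a1 and the FACIT gene Col19a1, which is also expressed by neurons. Col25a1 was 2.90, 2.38, 2.66 and 2.52 FPKM at the lesion and 4.22, 6.32, 5.11 and 5.17 FPKM in region 3 (log2 -0.98 ± 0.13, adjusted p = 1.7e-04). Col19a1 was 0.720, 0.954, 1.07 and 1.01 FPKM at the lesion and 1.39, 1.64, 1.49 and 1.59 FPKM in region 3 (log2 -0.71 ± 0.12, adjusted p = 6.6e-04). Both fell in all 4 animals without overlap. The neuron markers moved with them, as 5 of 6 fell and 0 rose, and their summed level was 681 to 874 FPKM at the lesion and 987 to 1248 FPKM in region 3.

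The fibrillar genes Col1a1 and Col3a1 were higher at the lesion in 3 animals and near the rostral level in stimulated animal 2. Col1a1 was 13.9, 13.0, 10.9 and 7.83 FPKM at the lesion and 8.00, 6.75, 6.23 and 7.26 FPKM in region 3. Col3a1 was 18.3, 16.7, 15.5 and 8.18 FPKM against 6.91, 5.12, 8.44 and 8.89 FPKM. In both genes the lowest lesion value came from stimulated animal 2, and neither difference passed the threshold (log2 0.66 ± 0.55 and 0.97 ± 0.69, adjusted p = 0.42 and 0.33). The SE came from one model of all 20 libraries, as in each comparison of 2 regions. For a given gene it was therefore the same as between regions 1 and 2 and carried the spread of the white matter libraries. It was not the spread at the lesion or in region 3 alone. Col18a1 was 5.89, 5.00, 5.26 and 3.21 FPKM against 2.23, 1.73, 1.97 and 2.14 FPKM, without overlap, and lay just outside the threshold (log2 1.23 ± 0.43, adjusted p = 0.0504). Col4a1 was 7.57, 5.56, 5.73 and 4.12 FPKM against 2.81, 2.23, 3.31 and 3.62 FPKM, also without overlap (log2 0.93 ± 0.44, adjusted p = 0.14). With the animal as a replicate block, Col18a1 and Col6a1 passed and 8 genes were called in all.

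Without stimulated animal 2, 20 of the 29 genes were called at the lesion, 18 higher, where 15.7% of all genes were higher, and 2 lower, where 16.6% were lower. Among them were Col1a1 (log2 0.85 ± 0.23, adjusted p = 0.015), Col3a1 (1.33 ± 0.32, adjusted p = 0.0075), Col4a1 (1.18 ± 0.19, adjusted p = 5.8e-04) and Col18a1 (1.45 ± 0.22, adjusted p = 4.6e-04, limma). Without any one of the other 3 animals, 3 genes were called, Col25a1, Col19a1 and Col20a1, and Col23a1, Col4a4 and Col5a3 were lost each time. Between 3.44% and 9.15% of all genes were called in those 3 fits. The choice of scaling also mattered, since quantile normalization and upper-quartile scaling each called 10 genes, 8 higher and 2 lower, where 31.8% and 30.3% of all genes were called.

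**Figure D3:**
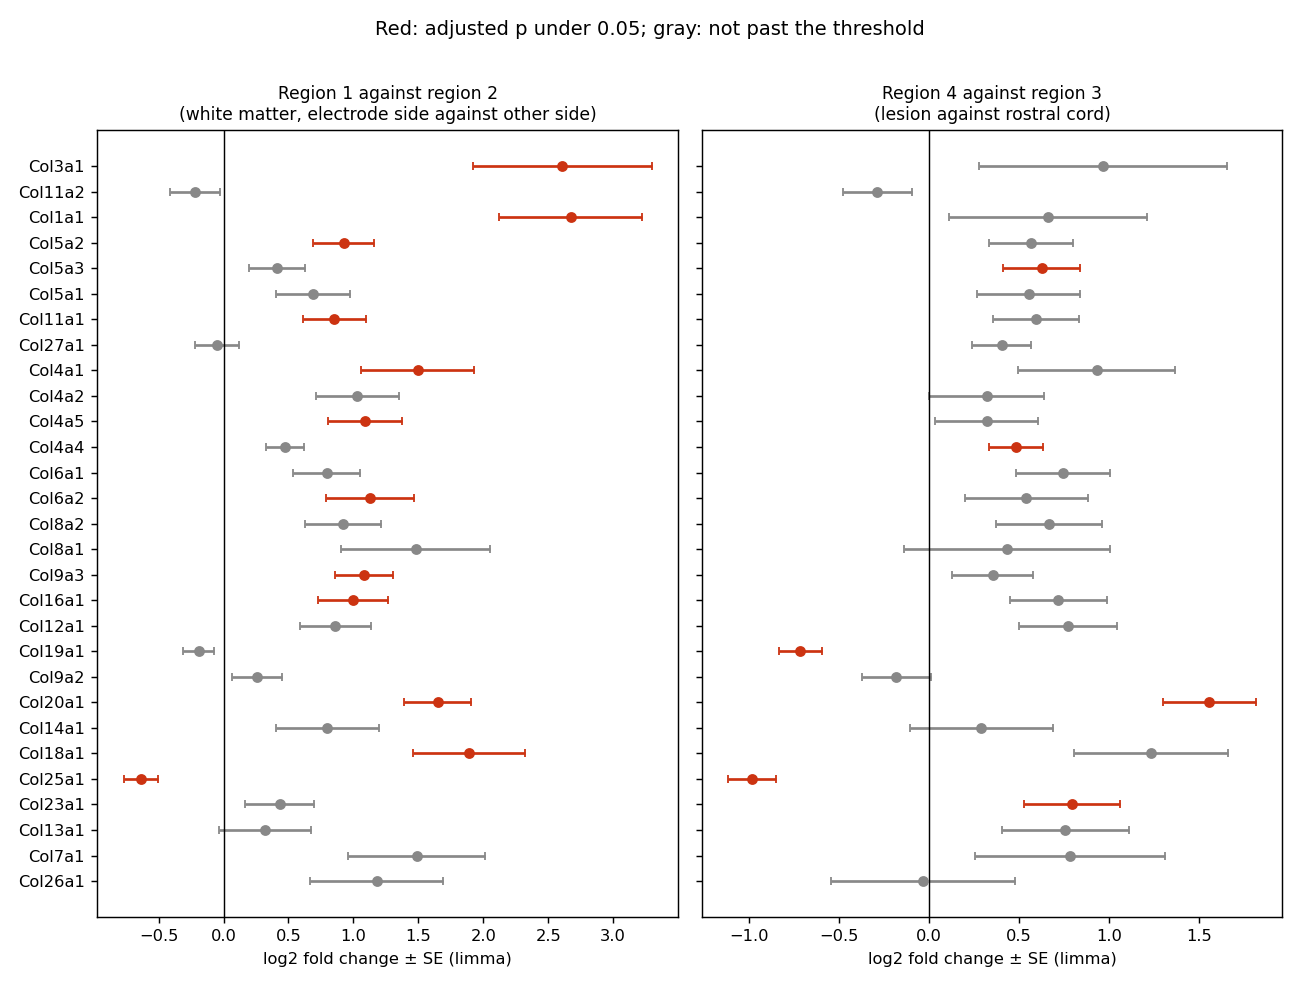
Log2 fold change ± SE (limma, 20 libraries) of the 29 genes for region 1 against region 2 and for region 4 against region 3, with genes past the threshold in red. The left panel has 12 red genes, with Col1a1 and Col3a1 farthest to the right at 2.67 and 2.61, and the right panel has 6, where both of these are gray.

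Of the collagen-cleaving enzymes, 4 of 6 rose at the lesion. Ctsk, which encodes the collagen-degrading cathepsin K, was higher by 3.12 on the log2 scale (adjusted p = 1.5e-04), and Mmp8, Mmp2 and Mmp14 by 2.24, 1.45 and 1.12. Of the genes of propeptide cleavage and crosslinking, 2 of 8 rose, Loxl2 (1.33) and Bmp1 (0.76), and Adamts3 fell (-0.61). Each of the remaining lists had 1 gene that rose, Itgb1 of 5 receptors (0.63), Fmod of 11 fibril-binding genes (0.93), Colgalt1 of 19 hydroxylation and folding genes (0.76) and Lamc3 of 12 basement membrane partners (0.56). Without stimulated animal 2, 5 of the collagen-cleaving enzymes, 6 of the genes of cleavage and crosslinking, 4 receptors, 7 fibril-binding genes, 10 hydroxylation and folding genes and 8 basement membrane partners rose. No fibroblast marker of 10 was called (4 without stimulated animal 2), while 5 of 8 myeloid markers and 5 of 7 Schwann cell markers rose. Of the mural and choroid plexus markers 1 of 8 and 1 of 5 rose, and 1 of 5 skeletal muscle markers fell. No endothelial, astrocyte, oligodendrocyte or cartilage and bone marker was called. The fibroblast sum was 143.7 to 148.4 FPKM in the control animals and 90.9 to 116.2 FPKM in the stimulated animals at the lesion, against 70 to 86 FPKM in region 3. The myeloid sum was 343 to 472 FPKM and 198 to 359 FPKM in the same groups at the lesion. Their part in the collagen values was not tested.

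The cord caudal to the lesion was also compared with the cord rostral to it. In region 5 against region 3, 5 of the 29 genes rose, where 2.77% of all genes rose, and 2 fell, where 1.55% fell, and 22 of 29 were higher in all 4 animals, as were 31.9% of all genes. Col8a2, a chain of the short-chain type VIII collagen found in vessels and basement membranes, was 4.49, 3.67, 5.44 and 6.72 FPKM in region 5 and 1.75, 1.12, 2.16 and 1.49 FPKM in region 3. It did not overlap between the regions and was 3.13-fold higher (log2 1.65 ± 0.29, adjusted p = 0.0047). Col23a1 was 2.71, 2.2, 1.46 and 2.70 FPKM in region 5 (log2 1.32 ± 0.27, adjusted p = 0.011). Col12a1, a FACIT collagen of dense connective tissue, was 2.95, 3.27, 5.15 and 6.70 FPKM against 1.99, 1.65, 2.05 and 1.89 FPKM (log2 1.18 ± 0.27, adjusted p = 0.022). Both stimulated animals were above both controls in region 5 for Col12a1. Col6a1 rose by 1.00 ± 0.26 (adjusted p = 0.035) and Col4a4 by 0.57 ± 0.15 (adjusted p = 0.036). Col25a1 (log2 -0.65 ± 0.13, adjusted p = 0.011) and Col19a1 (-0.43 ± 0.12, adjusted p = 0.046) fell here as they did at the lesion, without overlap.

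The region 5 result rested on several libraries. The count was 2, 1 and 1 without control animals 1 and 2 and stimulated animal 1, where 0.894%, 0.664% and 0.355% of all genes were called. It was 8 without stimulated animal 2, where 8.13% were called, and 3 without the region 5 library of that animal, where 1.24% were. It was 3 without a filter and 5 with upper-quartile scaling, 3 higher and 2 lower. The Schwann cell markers, which label peripheral myelin, moved in the same direction, with 5 of 7 higher in region 5 and a sum of 110.4 to 137.3 FPKM in the controls and 261.1 to 263.1 FPKM in the stimulated animals there, against 33 to 85 FPKM in region 3. The fibroblast sum was 122.1 to 130.9 FPKM in the control and 163.7 to 216.7 FPKM in the stimulated animals of region 5, and 1 of 10 markers, Aldh1a2, was called higher. Of the choroid plexus markers 2 of 5 were higher and of the skeletal muscle markers 4 of 5 lower, and 1 of 6 neuron markers was higher and 1 lower. Of the 6 lists of collagen biology, the fibril-binding genes had 3 of 11 higher, Fmod (1.15), Ogn (1.12) and Prelp (0.90), the receptors 1 of 5, Itgb1 (0.66), and Adamts3 was lower. In the other 3 lists no gene was called. The part of these cell types was not tested.

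Lesion and caudal cord differed less. Between regions 4 and 5, 1 of the 29 genes was lower at the lesion, where 7.06% of all genes were lower, and 0 were higher, where 0.934% were higher. The unadjusted p was under 0.05 for 3 lower, where it was for 25.9% of all genes, and 1 higher, where it was for 3.11%. The gene called was Col8a2, at 2.75, 3.31, 2.36 and 1.85 FPKM at the lesion against 3.67 to 6.72 FPKM caudally, lower in all 4 animals without overlap (log2 -0.98 ± 0.29, adjusted p = 0.047). Col20a1 lay on the other side, at 0.895 to 1.29 FPKM at the lesion against 0.599 to 0.672 FPKM, without overlap and just outside the threshold (adjusted p = 0.054). No library of region 5 helped Col20a1 pass the filter, as stated above. With the animal as a replicate block, Col8a2 and Col20a1 were both called, while quantile and upper-quartile scaling called Col20a1 in place of Col8a2. Col8a2 lost its call without any 1 of the 4 animals. Without stimulated animal 2, Col18a1, Col20a1 and Col4a1 were higher, where 2.87% of all genes were, and Col8a2 was not called. Without the region 5 library of this animal alone no gene of the 29 was called, where 0.579% of all genes were. Col1a1 was 11.1, 6.80, 10.1 and 20.3 FPKM and Col3a1 10.5, 7.73, 20.1 and 49.7 FPKM in region 5. In both the caudal value of stimulated animal 2 was the highest and its lesion value the lowest, so the sign of the difference between regions turned without that animal, and for Col1a1 also with quantile and upper-quartile scaling. Of the pathway lists, Ctsk alone was called, higher at the lesion by 1.76 (limma adjusted p = 0.020). Of the marker lists, 3 of 6 neuron markers were lower at the lesion and no other marker was called. Their part in the collagen values was not tested.

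White matter and cord differed in most genes, and so did collagen genes. Of the 29, 5 were higher in white matter, where 25% of all genes were higher, and 14 were lower, where 47.1% were lower. The smallest adjusted p of the 29 was that of Col19a1, at 3.20 to 4.51 FPKM in the 8 white matter libraries and 0.720 to 1.64 FPKM in the 12 cord libraries, without overlap (log2 1.79 ± 0.08, adjusted p = 1.3e-13). The model counted the libraries as independent, although they are pieces of 4 animals. Regions 1 and 2 of the same animal correlated at 0.41 to 0.77. The SE and p of this comparison are therefore not measures of the spread between 4 animals. Col25a1 (log2 0.42 ± 0.09) and Col13a1 (0.76 ± 0.23) were also higher. So were Col26a1 (1.91 ± 0.33) and the anchoring fibril gene Col7a1 (0.86 ± 0.34), whose mean was under 1 FPKM in each region. Each of these last genes reached 1 FPKM in only 1 library, a region 1 library of a stimulated animal. Each thus entered the test through the tissue where it was called higher. When 1 FPKM was asked in at least 2 libraries, neither was tested. Without stimulated animal 2, Col7a1 was not called. In the other direction, Col8a2 was lower in white matter by 2.01 ± 0.19, Col23a1 by 1.98 ± 0.17, Col11a1 by 1.83 ± 0.16, Col9a3 by 1.44 ± 0.14 and Col12a1 by 1.26 ± 0.18 on the log2 scale. Of these Col23a1 and Col11a1 did not overlap between the tissues. Col1a1 and Col3a1 did not pass (adjusted p = 0.067 for Col1a1, which passed with the animal as a replicate block), and their white matter levels spanned those of the cord, since region 1 lay near or above the cord and region 2 mostly below it. Neuron markers were higher in white matter in 5 of 6 cases and lower in 1, oligodendrocyte markers lower in 6 of 6, Schwann cell markers lower in 6 of 7 and fibroblast markers lower in 8 of 10. Of the 6 lists of collagen biology, 16 of 19 hydroxylation and folding genes, 8 of 12 basement membrane partners, 8 of 11 fibril-binding genes, 4 of 5 receptors, 3 of 8 genes of cleavage and crosslinking and 2 of 6 collagen-cleaving enzymes were lower, and 2, 2, 1, 0, 2 and 1 were higher.

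The chains of one collagen type were also set against each other within each library. Col4a1 stood to Col4a2 at a ratio of 1.15, 1.06, 1.13 and 1.52 in region 1 and 0.842, 0.791, 0.760 and 1.13 in region 2. It was higher on the electrode side in 4 of 4 animals, by 0.47 ± 0.07 on the log2 scale (SD over animals). At the lesion it was 1.66, 1.28, 1.45 and 1.13, and in region 3 it was 0.893, 0.779, 0.940 and 0.975, so all lesion libraries were above 1 and all rostral libraries below. The lesion was higher in 4 of 4 animals, by 0.61 ± 0.29. In region 5 the ratio lay between 0.886 and 1.27, and the lesion was above it in 3 of 4 animals (0.35 ± 0.35, exact sign-flip p = 0.25, two-sided). The first 2 differences each had a two-sided exact sign-flip p of 0.125, the smallest that 4 animals allow, so neither could pass 0.05. Stimulated animal 2 had the highest ratio of the 4 animals in region 1, where its collagen share was the highest, and the lowest at the lesion, where its share was the lowest.

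For type VI collagen, Col6a1 stood to Col6a2 at a median ratio of 1.48 in region 1 and 2.1 in region 2, and at 0.882, 1.05 and 1.03 in regions 3, 4 and 5. The lesion was above the rostral cord in 4 of 4 animals by 0.20 ± 0.15 on the log2 scale (exact sign-flip p = 0.125). Regions 4 and 5 differed by 0.01 ± 0.06 (exact p = 0.88), and region 1 was below region 2 in 3 of 4 animals (-0.33 ± 0.49, exact p = 0.38). Over the 6 tests of chain ratios no p was under 0.05, so none would be after adjustment.

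**Figure D4:**
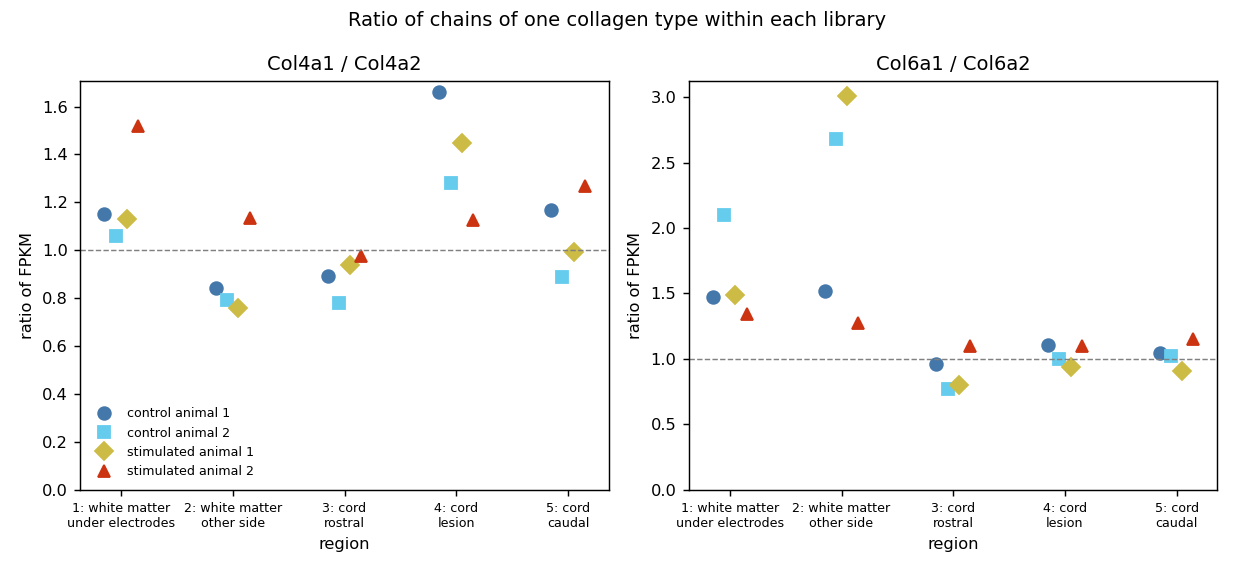
Ratio of FPKM of Col4a1 to Col4a2 and of Col6a1 to Col6a2 in each library by region, with 1 point for each animal and a dashed line at 1. The 4 lesion libraries lie above 1 for Col4a1 to Col4a2, from 1.13 to 1.66, and the 4 rostral libraries below it, from 0.779 to 0.975.

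Stimulated and control animals were then compared within each region, with 2 animals in each group. No collagen gene passed the threshold in any region with limma. The smallest adjusted p among the 29 was 0.71, 0.95, 0.96, 1.00 and 0.79 in regions 1 to 5. Over all 15210 genes, 0 were called in regions 1 to 4, which is 0%, and 3 in region 5, which is 0.00657% higher and 0.0131% lower. The unadjusted p was under 0.05 in region 1 for 2 higher (3.83% of all genes) and 1 lower (1.62%). For region 2 the counts were 0 higher (0.894%) and 1 lower (0.519%), and for region 3 they were 2 higher (0.842%) and 0 lower (2.59%). At the lesion they were 0 higher (0.71%) and 3 lower (1.53%), and caudally 11 higher (2.97%) and 0 lower (0.618%). An exact permutation test of 2 against 2 animals cannot go below a two-sided p of 0.333.

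The groups of animals did not overlap for some genes in each region. In region 1 both stimulated animals were above both controls for 13 of the 29 genes, where 21.2% of all genes were, and below for 3, where 19.5% were. In region 2 the counts were 1 above, where 20.2% were, and 2 below, where 6.77% were. In region 3 they were 4 above, where 5.14% were, and 0 below, where 24.7% were. At the lesion 2 were above, where 12.5% were, and 13 below, where 7.69% were. In region 5 there were 19 above, where 18.5% were, and 0 below, where 6.07% were. The median log2 fold change of the 29 genes was 0.60, 0.15, 0.04, -0.29 and 0.43 in regions 1 to 5, against -0.03, 0.08, -0.07, 0.00 and 0.05 over all genes.

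In region 5, Col3a1 was 10.5 and 7.73 FPKM in the controls and 20.1 and 49.7 FPKM in the stimulated animals (log2 1.81 ± 0.49, unadjusted p = 0.021, adjusted p = 1.00). Col12a1 was 2.95 and 3.27 FPKM against 5.15 and 6.70 FPKM (log2 0.92 ± 0.19, unadjusted p = 0.0081). Col14a1, a FACIT collagen of fibril surfaces, was 0.565 and 0.604 FPKM against 1.08 and 2.22 FPKM (log2 1.41 ± 0.39, unadjusted p = 0.022). Col14a1 reached 1 FPKM in these 2 stimulated libraries only. It thus passed the filter, and was named, through the group where it was higher. In these 3 genes both stimulated animals were above the controls, and stimulated animal 2 was the higher of the pair. With 1 stimulated animal left out, the spread within groups comes from the control pair alone and the lone animal is assumed to vary like it. Col14a1, Col3a1, Col7a1 and Col8a1 were then called higher without stimulated animal 1, and Col7a1 without stimulated animal 2, where 147 and 119 of all genes were called in place of 3. In region 5 Col7a1 was 0.155 and 0.159 FPKM in the controls and 0.280 and 0.229 FPKM in the stimulated animals, near the floor of 0.1. It reached 1 FPKM in 1 library only, of region 1. A block on the replicate number called Col14a1, Col3a1, Col7a1 and Col8a1 and 443 of all genes, but these numbers do not pair control with stimulated animals. The fibroblast and Schwann cell sums were also higher in both stimulated animals of this region, with the values given above, and so were the mural sum, at 103 to 109 FPKM against 79.6 to 97.4 FPKM, and the choroid plexus sum, at 8.23 to 8.99 FPKM against 5.50 to 6.06 FPKM. Their part in the collagen values was not tested.

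At the lesion the direction was the opposite. Col1a1 was 13.9 and 13.0 FPKM in the controls and 10.9 and 7.83 FPKM in the stimulated animals (log2 -0.54 ± 0.20, unadjusted p = 0.055). Col6a1 was 7.61 and 7.44 FPKM against 5.60 and 4.33 FPKM (log2 -0.61 ± 0.18, unadjusted p = 0.029). Col8a1, the other type VIII chain, was 1.37 and 1.16 FPKM against 0.824 and 0.781 FPKM (log2 -0.66 ± 0.17, unadjusted p = 0.016). The groups did not overlap for any of the 3, and stimulated animal 2 was the lowest each time. The fibroblast sum was lower in both stimulated animals here as well, and so was the Schwann cell sum, at 101 to 108 FPKM against 134 to 140.4 FPKM in the controls. Their part in these values was not tested.

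In region 1, Col9a3 was 3.60 and 3.45 FPKM in the controls and 4.84 and 6.59 FPKM in the stimulated animals (log2 0.68 ± 0.21, unadjusted p = 0.034). Col11a1 (log2 0.69 ± 0.27) and Col4a5 (0.70 ± 0.28) were also without overlap, with stimulated animal 2 the highest. Marker sums of region 1 differed without overlap too. In the controls and the stimulated animals the fibroblast sum was 40.1 to 71.1 and 84.4 to 140.9 FPKM, the myeloid sum 122 to 153 and 181 to 581 FPKM and the astrocyte sum 887 to 904 and 1317 to 1403 FPKM. The Schwann cell sum was 11.2 to 12.0 and 15.2 FPKM, and the neuron sum was 1467 to 1470 and 933 to 1337 FPKM.

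In region 2, Col11a2 was 15.3 and 17.3 FPKM against 11.7 and 11 FPKM (log2 -0.52 ± 0.10, unadjusted p = 0.0095). Col27a1 (-0.34 ± 0.22) and Col5a3 (0.34 ± 0.22) were the other genes there without overlap and above 1 FPKM. The astrocyte sum was 482 to 577 FPKM in the controls and 596 to 1211 FPKM in the stimulated animals of region 2, and the choroid plexus sum was 2.66 to 4.01 and 4.68 to 12.7 FPKM. In region 3, Col3a1 was 6.91 and 5.12 FPKM against 8.44 and 8.89 FPKM (log2 0.54 ± 0.18, unadjusted p = 0.042), and Col4a1 (0.47 ± 0.17) and Col4a2 (0.27 ± 0.12) were also higher in both stimulated animals. The skeletal muscle markers summed to 4.70 to 5.66 FPKM in the controls and 11.2 to 22.2 FPKM in the stimulated animals of region 3, with a median log2 fold change of 1.72 over 5 markers and 0 called. The part of these cell types in the collagen values of regions 1 to 3 was not tested.

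**Figure D5:**
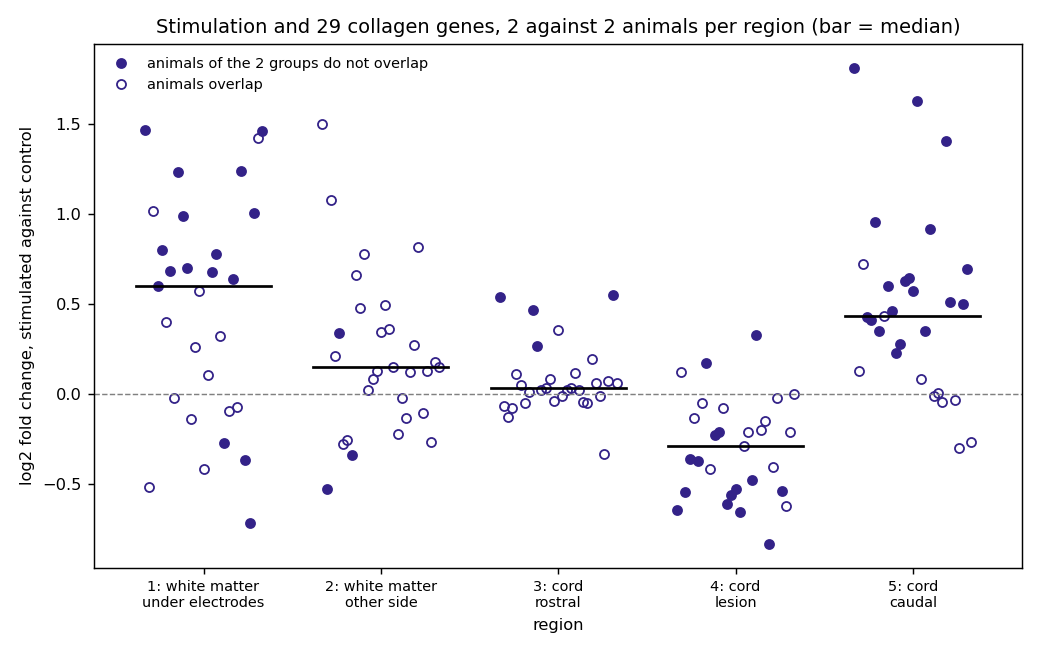
Log2 fold change of stimulated against control animals for each of the 29 genes in each region, with 1 point for each gene, filled where the 2 groups of 2 animals do not overlap, and a bar at the median. The median is above 0 in regions 1, 2, 3 and 5 (0.60, 0.15, 0.04 and 0.43) and below 0 at the lesion (-0.29). No point passed the threshold.

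Whether the effect of stimulation differed between regions was tested on differences within each animal. For regions 4 and 5, 4 and 3, and 1 and 2, 0 of the 29 genes passed the threshold with limma. The unadjusted p was under 0.05 for 12, 4 and 2 of the 29, where the effect was lower at the lesion for the 12 and the 4, and higher in region 1 for the 2. Over all genes tested, 2.54% and 1.68% had such a p in the lower direction for the first 2 pairs and 0.92% in the higher direction for the third, and the adjusted calls over all genes were 1 lower (0.00657%) for the first pair and 0 for the others, which is 0%. Without either of the 2 control animals, 3 genes were called for regions 4 and 5, Col14a1, Col3a1 and Col8a1, each with a lower effect at the lesion. The spread then comes from the stimulated pair alone, and 235 and 324 of all genes were called in these fits in place of 1. These regions come from the same 4 animals, and stimulated animal 2 had the lowest collagen share of the 4 at the lesion and the highest caudal to it.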

How the data were processed

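The authors depleted ribosomal RNA, aligned reads to Rnor6 with TopHat2 2.1.0 and estimated FPKM with Cufflinks 2.2.1, and the deposited values are FPKM per gene, with low values raised to 0.1. FPKM keeps no read number, so depth per gene is unknown and precision is the spread between animals. 2 animals per group limit it. The annotation version is not given in the sources used here. All columns carried a sample title, and 0 were without a sample.

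Genes with at least 1 FPKM in any library were kept (15210 of 30443). Log2 FPKM, floored at 0.1, was tested with limma 3.58.1 in R 4.3.3 (lmFit, eBayes with trend). Regions were tested in one model of 20 libraries without a term for the animal. Stimulation was tested in the 4 libraries of a region, and differences of effects on within-animal differences. P-values were adjusted by Benjamini-Hochberg over all genes, with 0.05 as the threshold. Fold changes are on the log2 scale of floored FPKM, which understates changes of low genes. The fits were tested on simulated data in which every library was drawn independently. No effect was shared by the pieces of an animal, so that check did not cover the pairing. Chain ratios were tested by exact sign flips over animals. Other steps used Python 3.11.15, numpy 2.4.6, pandas 2.3.3, scipy 1.17.1 and matplotlib 3.10.9.

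Genes named with values were the 25 with the highest mean FPKM and others past the threshold with a region mean of at least 1 FPKM. For stimulation they were the 3 of smallest p per region without overlap and with a group mean of at least 1 FPKM. Of each list, up to 4 genes past the threshold were named. The members and lists were chosen with earlier results of these data known. Col26a1, Col7a1 and the genes called only under other settings were named after their values were seen.

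Same-numbered libraries of one group are pieces of one animal, so the 5 regions are paired by animal. Deviations of the same animal correlated at 0.41 to 0.77 for regions 1 and 2, 0.14 to 0.26 for 4 and 3, -0.09 to 0.11 for 4 and 5, and 0.02 to 0.18 for 5 and 3. Numbers shared by control and stimulated animals name different animals. Alternatives were another pseudocount, no filter or a stricter filter, quantile and upper-quartile scaling, summed rows of a repeated symbol, eBayes without a trend, a block, and leaving out each animal. Leaving out the region 1 or region 5 library of stimulated animal 2 was chosen after seeing the data. The interval sequence is from RefSeq, GRCr8, whose promoter table matched 33 of the 42 genes. It is a later build than that of the values.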

Additional observations from a re-analysis of the deposited data

Results flagged for a closer look

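In a group of 4 libraries of a region, a value was singled out when its gap to the nearest other, divided by the range, was above Dixon's critical value for a confidence of 95%. Chance does this in about 1 in 20 groups when the values are normally distributed. The rule was applied to FPKM and not to the log2 values used in the tests, so that rate may not hold here. Of 135 groups, 15 were singled out, 13 of them for a high value in stimulated animal 2. In region 1 of this animal these were Col3a1 (73.3 FPKM), Col1a1 (38.9 FPKM), Col4a1 (24.6 FPKM), Col4a2 (16.2 FPKM) and Col5a2 (9.05 FPKM). The other 3 animals reached at most 20.6, 12.8, 5.68, 5.02 and 4.46 FPKM for these genes. In its region 2 they were Col3a1 (19.9 FPKM), Col1a1 (9.85 FPKM), Col4a1 (6.20 FPKM), Col4a2 (5.47 FPKM), Col18a1 (3.98 FPKM), Col4a5 (3.11 FPKM) and Col14a1 (0.298 FPKM). The other animals reached at most 2.62, 1.90, 2.18, 2.73, 1.18, 1.11 and 0.209 FPKM. In its region 5 it was Col8a1, at 4.83 FPKM against 0.714 to 1.13 FPKM. The remaining values were Col11a2 in region 5 of stimulated animal 1, at 16.02 FPKM against 13.1 to 13.3 FPKM, and Col8a2 in region 1 of control animal 1, at 1.63 FPKM against 0.693 to 0.814 FPKM. In regions 3 and 4, 0 values were singled out. The 13 values come from 3 libraries of 1 animal and are not independent.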

How the results depend on the processing

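Counts of called genes are given over the alternatives in turn. Leaving out animals or single libraries of stimulated animal 2 gave 0 to 20 for region 1 against 2, 3 to 20 for region 4 against 3, 0 to 3 for region 4 against 5, 1 to 8 for region 5 against 3, 16 to 22 for white matter against cord, 0 to 1 for stimulation in region 2, 0 to 4 in region 5 and 0 to 3 for the regional difference of stimulation effects (4 against 5), and 0 in the remaining comparisons. Without a filter the counts were 5 for region 1 against 2, 3 for region 5 against 3 and 0 for region 4 against 5. Quantile and upper-quartile scaling gave 10 and 10 for region 4 against 3. Quantile normalization moved the median log2 fold change of all genes from -0.14 to -0.03 for region 4 against 5, from 0.11 to -0.02 for region 5 against 3, from 0.06 to -0.05 for region 1 against 2 and from -0.18 to -0.04 for white matter against cord. For region 4 against 5, log2(FPKM + 1) gave 2 and eBayes without a trend 0. With the animal as a replicate block, region 4 against 5 gave 2, region 1 against 2 gave 17 and region 4 against 3 gave 8, and it moved no other count by over 1.5 times. Numbers shared by control and stimulated animals do not pair them (correlations of deviations from -0.21 to 0.32), and that block gave 4 for stimulation in region 5. The Col4a1 to Col4a2 difference between regions 1 and 2 was 0.37 with log2(FPKM + 1).

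Without 1 animal each, the log2 differences of Col4a1 to Col4a2 ranged from 0.52 to 0.75 (regions 4 and 3), 0.29 to 0.53 (4 and 5) and 0.43 to 0.48 (1 and 2). Those of Col6a1 to Col6a2 ranged from 0.14 to 0.27, -0.02 to 0.03 and -0.47 to -0.11. Region 4 against 5 reversed for Col1a1 with quantile (0.15) and upper-quartile scaling (0.15), without stimulated animal 2 (0.45) and without its region 5 library (0.28), and for Col3a1 in the latter cases (0.51 and 0.25). Over all animals and libraries left out, Col1a1 ranged from -0.32 to 0.45 and Col3a1 from -0.73 to 0.51. The cause was not tested. Ratios of Col1a1 to Col1a2 and of Col6a3 to Col6a1 were not run, since Col1a2 is listed at the floor and Col6a3 is not analysed here.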
